A study of Mus musculus with 9 samples.

Results

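Cartilage holds its water and its stiffness through aggregates of aggrecan with hyaluronan, and the genes for the proteins of these aggregates are switched on in chondrocytes by transcription factors of the Sox family. Here 10 genes of this kind, matrix and regulator, were chosen by name and followed out of the 52459 genes in the deposited table. They were 7 genes of secreted cartilage matrix proteins (Acan, Hapln1, Matn1, Matn3, Ucma, Comp and Chad) and 3 Sox genes (Sox5, Sox6 and Sox9). The cells were LepR+ skeletal stem and progenitor cells, that is, cells carrying the leptin receptor, taken from mouse tibiae and femurs by collagenase, gated outside the blood lineages and sorted on a flow cytometer, and their RNA was sequenced in bulk. There were 3 groups of 3 libraries: middle-aged mice (52 weeks) given sodium salicylate, untreated middle-aged mice (52 weeks) and untreated young mice (12 weeks). The sources used here do not give the strain or sex of these mice, the dose or length of the salicylate treatment, or whether LepR was stained or reported by a transgene, nor whether the replicates of a group were different mice, so a p-value reflects the spread among these 9 libraries alone.

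As background, aggrecan (Acan) is the large chondroitin sulfate proteoglycan of cartilage, and link protein (Hapln1) locks it onto hyaluronan. Matrilin-1 and matrilin-3 (Matn1, Matn3) are adaptor proteins that bridge collagen fibrils and proteoglycans, Comp is a pentameric thrombospondin-family protein that binds collagens and is also made by tendon, Chad (chondroadherin) is a leucine-rich repeat protein that binds chondrocytes and collagen, and Ucma is a small secreted protein of immature chondrocytes. Sox9 is required for chondrocytes to form and binds enhancers of most of these matrix genes, while Sox5 and Sox6 carry no activation domain of their own and strengthen Sox9 at these enhancers. LepR+ cells of adult marrow are known mainly as a source of osteoblasts, adipocytes and niche factors for blood stem cells. Sox9 is also expressed outside cartilage, in several kinds of stem and progenitor cell, and Sox6 in developing red blood cells.

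The promoters of the 4 matrix genes that were lower in the middle-aged than the young libraries are shown because these genes were called together. Each window runs from 250 bases before to 50 bases after the transcription start in RefSeq (GRCm38.p6), all on the plus strand, and the capital letter is the first transcribed base. The windows are chr7:79052976-79053275 for Acan, chr13:89540386-89540685 for Hapln1, chr12:8947679-8947978 for Matn3 and chr2:4975872-4976171 for Ucma.
Acan: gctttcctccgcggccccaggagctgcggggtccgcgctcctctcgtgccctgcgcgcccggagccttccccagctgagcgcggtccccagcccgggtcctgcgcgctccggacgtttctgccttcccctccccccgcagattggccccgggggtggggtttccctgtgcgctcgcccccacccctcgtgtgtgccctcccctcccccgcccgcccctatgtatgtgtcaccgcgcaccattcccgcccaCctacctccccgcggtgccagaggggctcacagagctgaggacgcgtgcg
Hapln1: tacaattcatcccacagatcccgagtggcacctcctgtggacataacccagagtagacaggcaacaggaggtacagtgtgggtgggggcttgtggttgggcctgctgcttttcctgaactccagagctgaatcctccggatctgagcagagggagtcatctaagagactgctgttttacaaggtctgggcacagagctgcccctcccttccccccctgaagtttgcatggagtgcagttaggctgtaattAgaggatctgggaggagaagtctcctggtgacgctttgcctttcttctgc
Matn3: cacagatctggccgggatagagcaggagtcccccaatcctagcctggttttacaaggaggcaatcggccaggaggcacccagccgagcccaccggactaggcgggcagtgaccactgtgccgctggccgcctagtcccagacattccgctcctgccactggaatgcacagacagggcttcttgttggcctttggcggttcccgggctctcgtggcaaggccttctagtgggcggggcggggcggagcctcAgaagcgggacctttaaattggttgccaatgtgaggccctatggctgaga
Ucma: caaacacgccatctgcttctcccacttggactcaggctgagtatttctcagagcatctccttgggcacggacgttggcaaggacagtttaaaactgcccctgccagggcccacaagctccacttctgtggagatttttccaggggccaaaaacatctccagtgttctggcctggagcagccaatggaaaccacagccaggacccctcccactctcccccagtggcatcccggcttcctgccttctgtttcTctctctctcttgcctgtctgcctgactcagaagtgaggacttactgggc
The letters AACAAT and ACAATG, short forms of the sequence that Sox proteins bind, were searched on both strands, and the matches may overlap since the motifs share 5 letters. Neither was found in these 4 windows, nor in those of Matn1 and Chad. AACAAT occurred in 10.7% and ACAATG in 12.6% of all 32851 mouse promoter windows of this length, and either in 18.7%. A match lay in the Sox5 window, where ACAATG began 154 bases before the start, and in 2 of the 6 Sox6 windows. Of the 10 genes, 8 had a window, and Comp and Sox9 had none. The GC content was 74.0% for Acan, 54.3% for Hapln1, 62.7% for Matn3 and 56.0% for Ucma.

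In GENCODE M21 (GRCm38), Acan spans 79053483 to 79115099 of chromosome 7 (plus strand), with a longest transcript of 7355 bp in 17 exons. Hapln1 lies on chromosome 13 from 89539796 to 89611652, Matn3 on chromosome 12 from 8947929 to 8972028, Ucma on chromosome 2 from 4976122 to 4985748 and Matn1 on chromosome 4 from 130944385 to 130955475, all on the plus strand. Comp lies on chromosome 8 from 70373558 to 70382066 and Chad on chromosome 11 from 94565047 to 94569127, both on the plus strand. Among the regulators, Sox9 is a compact gene on chromosome 11 at 112782224 to 112787760 (plus strand) with 3 exons, whereas Sox5, on chromosome 6 from 143828425 to 144781977, and Sox6, on chromosome 7 from 115470872 to 116038796, are long genes on the minus strand with 14 and 16 annotated transcripts. Exons of Sox5 share 1330 bp with the antisense gene Sox5os1, which had no read in any library. Whether counting used strand is not given in the sources used here.

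The libraries held 9902613 to 20746804 reads. Lepr, the gene behind the sort, had 65748, 59657 and 75958 normalized counts in treated middle-aged, 57603, 43100 and 14455 in middle-aged and 89872, 78029 and 102235 in young libraries. Middle-aged replicate 3 stood apart, with the fewest reads, the lowest Lepr and 32.6% of its reads on antibody genes, against 0.107% to 16.5% in the other 8 libraries. Of 7 pan-leukocyte markers, 7 were called higher in the middle-aged than the young libraries, as were 10 of 10 neutrophil markers, where 2.14% of all 14998 genes tested were called higher. Those with the smallest adjusted p were Lcp1, Rac2, Cd53 and Laptm5 of the leukocyte list and Mpo, Camp, Ltf and Elane of the neutrophil list, with log2 differences of 1.43 to 2.31 and 1.75 to 2.64. Summed neutrophil markers ran from 99083 to 173516 normalized counts in treated middle-aged, 159025 to 267830 in untreated middle-aged and between 43814 and 69442 in young libraries, and summed pan-leukocyte markers from 10436 to 11928, 11432 to 26075 and 2928 to 4415. The 12 markers of the marrow stromal niche, Lepr among them, summed to 515596 to 655537 in treated middle-aged, 121252 to 503728 in untreated middle-aged and between 708571 and 887417 in young libraries. The most abundant of them were Cxcl12 and Igfbp5. None of the 12 was called, but their median log2 difference of middle-aged against young libraries was -1.40, beside -0.08 over all genes. In bulk RNA, fewer cells of a type and less RNA per cell cannot be told apart. The part of these cell types, of antibody reads and of middle-aged replicate 3 in the results below was not tested beyond the values given beside them.

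Values are normalized counts, in which the reads of a library are scaled by its size factor. Groups were compared with limma on log2(normalized count + 1), so a fitted fold compares means of logs: the pseudocount pulls the fold of a gene near 0 towards 1, and a single library at 0 can pull it away. A gene was called at an adjusted p under 0.05 over all 14998 genes tested. A gene was tested if its mean over the 9 libraries was at least 10. Of the 10 genes 9 passed, and Matn1 did not. Matn3 and Ucma passed through the young libraries alone, as did Acan in large part, so a low value in the other groups was built into their entry.

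In middle-aged against young libraries, 4 of the 6 tested matrix genes were called, all lower, and none of the 3 Sox genes. Over all genes, 131 of 14998 (0.873%) were called lower in this comparison. The 4 genes were Acan, Hapln1, Matn3 and Ucma, and in each of them the highest of the middle-aged libraries lay under the lowest of the young ones. Such a gap downward was seen in 15.1% of all genes, and in 4 of the 6 tested matrix genes. For Matn3 and Ucma, and in large part for Acan, low middle-aged values were built into their entry by the filter. The gap was also seen in 11 of the 12 stromal niche markers and 6 of 8 osteoblast markers.

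Acan had 19.7, 8.90 and 0 normalized counts in middle-aged libraries, against 201, 639 and 68.5 in young libraries. The middle-aged values stood on 23, 8 and 0 reads and the young ones on 226, 1068 and 61 reads. The log2 difference was -5.14 (SE 1.15, adjusted p = 0.0436, limma), a 35.2-fold lower level on the log2(count + 1) scale. From the summed reads, scaled by the size factors, it was 28.8-fold lower (exact 95% counting interval 20.2 to 42.6), and 11.2-fold without young replicate 2 (7.69 to 16.7) and 58.0-fold without middle-aged replicate 1 (29.3 to 134.6). Every middle-aged library was below every young library, and the young libraries themselves spread widely.

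Hapln1 was the most abundant of the 4. It had 76.2, 74.5 and 11 normalized counts in middle-aged libraries and 423, 2679 and 228 in young libraries, a log2 difference of -3.95 (SE 0.94, adjusted p = 0.0496, limma). The middle-aged libraries kept 160 reads of Hapln1 in all, so the link protein transcript was still detected, also in replicate 3.

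Matn3 had 0, 2.22 and 0 normalized counts in middle-aged libraries, against 109, 539 and 42.7 in young libraries. These values stood on 2 reads against 1062 reads. Scaled by the size factors, the summed level was 349.8-fold lower, with an exact 95% counting interval of 96.6 to 2892 that covers counting error only. Young replicate 2 gave 901 of the 1062 reads, and without it the level was 97.0-fold lower (26.4 to 807.7). It was 181.8-fold lower without middle-aged replicate 1, and at least 146.9-fold without middle-aged replicate 2, which held both reads. The log2 difference was -6.54 (adjusted p = 0.0239, limma), the smallest adjusted p of the 10 genes. Matn3 was also the only one of the 9 tested genes called in the test for any difference among the 3 groups (adjusted p = 0.0431, limma's moderated F test), where 0.647% of all genes were called.

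Ucma had no read in the 3 middle-aged libraries, against 40.9, 88.0 and 24.7 normalized counts in young libraries. With the limit that a count of 0 allows taken as 3 reads over the group, its level was at least 47.2-fold lower in middle-aged libraries, and at least 27.3-fold without young replicate 2, 24.5-fold without middle-aged replicate 1 and 29.8-fold without middle-aged replicate 2. The fitted log2 difference of -5.52 (adjusted p = 0.0332, limma) rests on the pseudocount and is no bound. Matn1, a matrilin typical of mature hyaline cartilage, was at the edge of detection: 2 reads in young replicate 2 and none in the other 8 libraries.

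**Figure D1:**
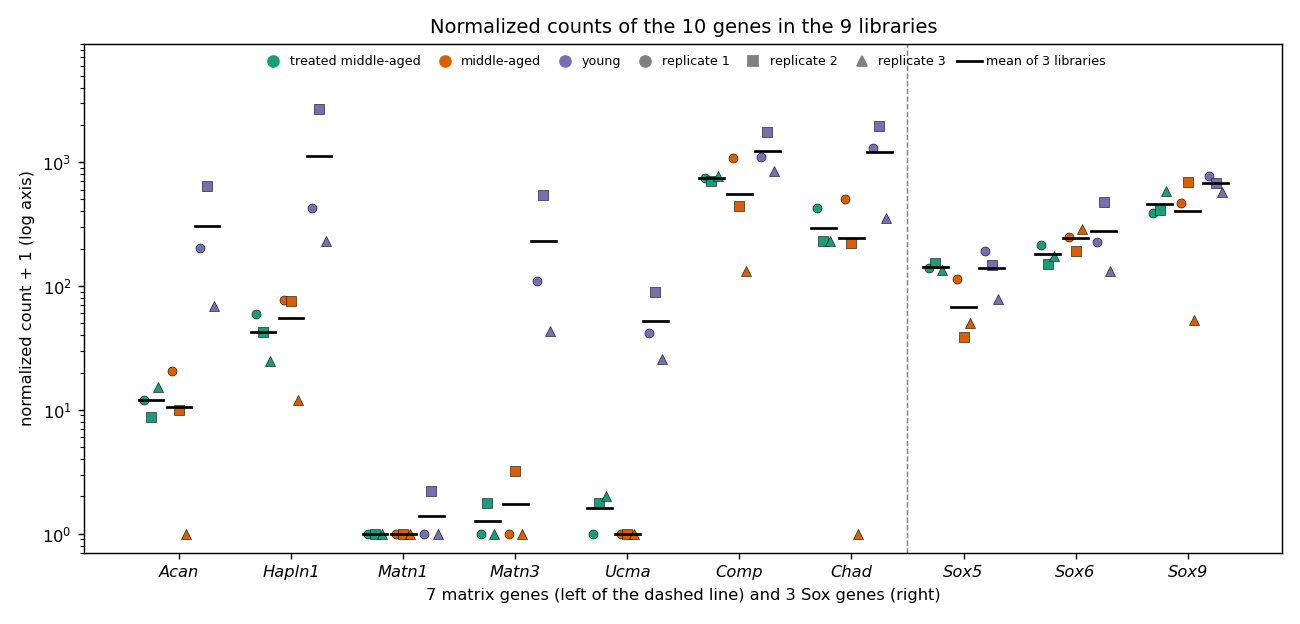
Normalized counts plus 1 on a log axis for the 7 matrix genes and 3 Sox genes, one point per library (shape gives the replicate number, color the group) with the mean of 3 libraries as a bar. Acan, Hapln1, Matn3 and Ucma have every young library above all others, Matn1 is near 0 throughout, and the groups of Sox6 and Sox9 overlap.

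Comp and Chad behaved differently from these 4 in that their groups overlapped. Comp had 1069, 444 and 132 normalized counts in middle-aged libraries and 1090, 1746 and 843 in young libraries. The highest middle-aged value lay above the lowest young one, and the log2 difference of -1.56 (SE 0.59) did not pass the threshold (adjusted p = 0.154, limma). Chad had 503, 221 and 0 in middle-aged libraries and 1307, 1956 and 353 in young libraries. The log2 difference of -4.33 (SE 1.80, adjusted p = 0.180, limma) took much of its size from the 0 in middle-aged replicate 3, and without that library it was -1.53 (adjusted p = 0.137, limma). By edgeR it was -2.27 and by DESeq2 -2.32. Its 95% interval with all libraries ran from -8.28 to -0.37.

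Young replicate 2 had the highest value of all 7 matrix genes and of Sox6. Relative to the mean of the other 2 young libraries its level was 8.23-fold for Hapln1, 7.10-fold for Matn3, 4.75-fold for Acan, 2.68-fold for Ucma, 2.36-fold for Chad and 1.81-fold for Comp. For Sox6 it was 2.68-fold, but for Sox5 1.10-fold and for Sox9 1.01-fold. Leaving out young replicate 2 ended the calls of Acan, Hapln1 and Matn3, and Ucma then fell under the filter. The log2 differences of middle-aged against young libraries were then -4.33 for Acan (adjusted p = 0.172), -2.92 for Hapln1 (adjusted p = 0.168) and -5.55 for Matn3 (adjusted p = 0.134, all limma), and 44 genes of the whole table were called. Leaving out young replicate 1, young replicate 3 or middle-aged replicate 2 likewise left 0 of the 10 genes called, where 3, 3 and 4 of all genes were called lower. By contrast, edgeR and DESeq2 on all 9 libraries called all 4, where they called 51 and 623 of all 14998 genes lower. Without treated middle-aged replicate 1 or 2, which enter the estimate of the spread, Matn3 alone was called, and without treated middle-aged replicate 3 Matn3 and Ucma were. In the order of these replicates, 22, 23 and 48 of all genes tested were called lower there. Without middle-aged replicate 1, Comp and Chad were called as well (adjusted p = 0.0168 for Comp and 0.0431 for Chad, limma). Calls rose across the whole table in that setting, with 1251 of 14998 genes called lower, against 131 with all 9 libraries. Without middle-aged replicate 3, the library that stood apart, all 4 genes were called, with log2 differences of -3.86 for Acan, -3.06 for Hapln1, -6.26 for Matn3 and -5.52 for Ucma. There, 392 of all 14956 genes tested were called lower.

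In treated middle-aged against young libraries no member was called, and neither was any other gene called lower (0 of 14998, 0%, with 1037 genes at an unadjusted p under 0.05 in either direction). Genes called higher made up 0.207%. By DESeq2 on the recovered reads 39 genes were called lower, Acan, Hapln1, Matn3 and Ucma among them, and by edgeR's quasi-likelihood test 0. Without middle-aged replicate 3, limma called Acan, Hapln1 and Matn3, where 116 of all 14956 genes tested were called lower. Acan, Hapln1, Matn3, Ucma and Comp, 5 of the 6 tested matrix genes, had every treated library below every young library, where 9.9% of all genes did. For Matn3 and Ucma, which passed the filter through the young libraries alone, low treated values were built into their entry. Of the 12 stromal niche markers, 9 also had every treated library below every young library. Acan had 10.97, 7.73 and 14.4 normalized counts in treated middle-aged libraries, which lie far under the 68.5 to 639 of young libraries, and its log2 difference was -4.15 (SE 1.15, adjusted p = 0.277, limma). Hapln1 had 58.1, 41.7 and 23.6 in treated middle-aged libraries, with a log2 difference against young libraries of -4.01 (SE 0.94, adjusted p = 0.172, limma).

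Matn3 had a single read in the treated middle-aged libraries (0, 0.77 and 0 normalized counts). Its log2 difference against young libraries was -6.83 (adjusted p = 0.0555, limma). Ucma had 0, 0.77 and 1.03, which is 2 reads, and its summed level was 111.3-fold lower than in young libraries (exact 95% counting interval 30.4 to 924.6), or 64.4-fold without young replicate 2 (17.1 to 542.1) and 66.1-fold without treated middle-aged replicate 1 (18.1 to 549.3). Comp had 745, 702 and 778 in treated middle-aged libraries, a narrow range just under the lowest young value of 843, with a log2 difference of -0.66 (SE 0.59, adjusted p = 1, limma). Chad had 426, 230 and 231 and overlapped the young libraries.

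The test against untreated middle-aged libraries asks whether salicylate moved these genes, and none was called. No gene of the whole table was called by limma in this comparison (0 of 14998 in either direction, 0%, with 1464 at an unadjusted p under 0.05), none by edgeR and 44 by DESeq2. For Acan the log2 difference was 0.99, with a 95% interval of -1.55 to 3.53, but 0.02 by edgeR, 0.07 by DESeq2 and -0.29 by limma without middle-aged replicate 3, where Acan was at 0. Its summed reads gave a level 1.19-fold lower in treated libraries (exact 95% counting interval 0.720 to 1.94). For Hapln1 the difference was -0.06, with an interval of -2.12 to 2.01, -0.45 by edgeR and -0.41 by DESeq2. Matn3 and Ucma were at 0 to 2 reads in both groups, too few for a fold. Comp differed by 0.90 (interval -0.41 to 2.20), or 0.42 by edgeR and 0.43 by DESeq2. Chad differed by 2.56 (interval -1.40 to 6.51), or 0.26 by edgeR, 0.29 by DESeq2 and -0.24 by limma without middle-aged replicate 3. These intervals admit changes of several fold in both directions for Acan, Hapln1 and Chad. The 3 comparisons share libraries pairwise, so their values are not independent of each other.

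**Figure D2:**
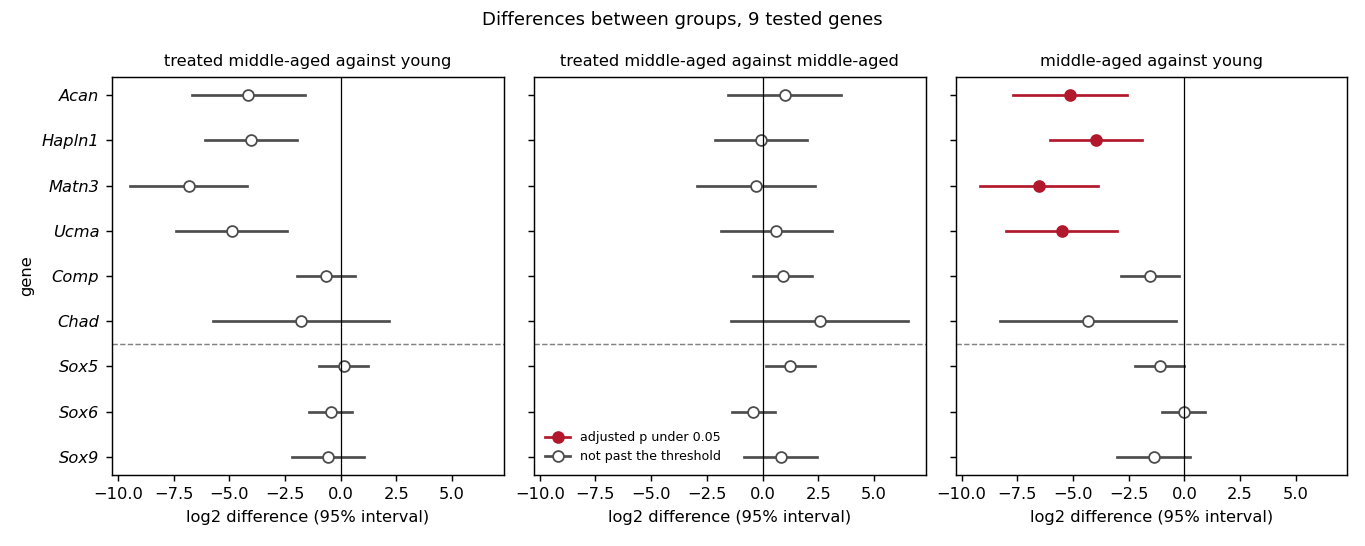
Log2 differences (points) with 95% intervals (lines) of the 9 tested genes in treated middle-aged against young, treated middle-aged against middle-aged, and middle-aged against young libraries, with called genes filled in red. The 4 red points, -3.95 to -6.54, are all matrix genes in middle-aged against young libraries, and the 3 Sox genes lie between -1.38 and 1.24 in all 3 comparisons.

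The 3 Sox genes were detected in all 9 libraries and none was called in any comparison. Sox9 had 384, 410 and 582 normalized counts in treated middle-aged, 463, 689 and 52.3 in middle-aged and 773, 680 and 574 in young libraries. Of the middle-aged libraries, replicate 2 lay within the young range and replicate 3 was the lowest of all 9. The log2 difference of middle-aged against young libraries was -1.38 (95% interval -3.02 to 0.25, adjusted p = 0.281, limma), -0.25 without replicate 3 (adjusted p = 0.657), -0.71 by edgeR and -0.74 by DESeq2.

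Sox5 had 139, 153 and 135 normalized counts in treated middle-aged, 112, 37.8 and 49.5 in middle-aged and 189, 147 and 77.5 in young libraries. Every treated library was above every untreated middle-aged library, the only one of the 9 tested genes of which this was true, and 14.1% of all genes had these groups apart in one direction or the other. The same gap upward was seen in 6 of the 12 stromal niche markers. The log2 difference of Sox5 was 1.24 (95% interval 0.15 to 2.33), and it did not pass the threshold after adjustment (adjusted p = 0.496, limma). Across 25 other ways of processing it ran from 0.36 to 1.74 and was called in 0. Against young libraries, Sox5 differed by 0.14 in treated middle-aged (interval -0.96 to 1.23) and by -1.10 in middle-aged libraries (interval -2.20 to -0.01, adjusted p = 0.210).

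Sox6 had 215, 149 and 174 normalized counts in treated middle-aged, 246, 191 and 289 in middle-aged and 227, 479 and 130 in young libraries. In middle-aged replicate 3, the library with the lowest values of Acan, Hapln1, Comp, Chad and Sox9, Sox6 was above all libraries but young replicate 2. Its log2 difference of middle-aged against young libraries was -0.02, with an interval of -0.99 to 0.94, and that of treated against untreated middle-aged libraries was -0.43 (interval -1.39 to 0.54). Markers of red blood cells, which also express Sox6 as they develop, summed to 3759 to 7104 in treated middle-aged, 5527 to 7719 in untreated middle-aged and between 3671 and 6913 in young libraries. None of the 8, of which Hbb-bs and Slc4a1 were the most abundant, was called. Which cells gave the Sox6 reads was not tested.

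Side by side, the 6 tested matrix genes had a median log2 difference of -4.73 in middle-aged against young libraries and the 3 Sox genes -1.10, beside -0.08 over all genes. Setting Ucma at its bound left the first median at -4.73. Matn3 and Ucma passed the filter through the young libraries alone. Their low values in the older mice were thus built into the matrix medians against young libraries. The 12 stromal niche markers had a median of -1.40 in the same comparison. With scaling to these markers the medians of the matrix and Sox genes were -4.01 and 0.26, beside 1.31 over all genes, and by edgeR -4.53 and -0.71. Without middle-aged replicate 3 the medians were -3.46 and -0.25, and without middle-aged replicate 1 -5.77 and -1.55. Without young replicate 2, where 5 matrix genes were tested, the matrix median was -3.82, and with both this library and middle-aged replicate 3 left out it was -2.03. In treated middle-aged against young libraries the medians were -4.08 for matrix and -0.45 for Sox genes, beside -0.01 over all genes, and -2.98 and 0.04 without young replicate 2. In treated against untreated middle-aged libraries they were 0.76 and 0.81, beside 0.09, but -0.26 and -0.29 without middle-aged replicate 3, and 0.14 and 0.17 by edgeR. Whether matrix and Sox genes differ in their change was not tested.

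Within each library, the sum of the 7 matrix genes was set against that of the 3 Sox genes, a ratio in which the size factor cancels. It was 1.68, 1.38 and 1.18 in treated middle-aged, 2.03, 0.818 and 0.366 in middle-aged and 2.67, 5.86 and 1.996 in young libraries. Every treated library was below every young library, whereas middle-aged replicate 1 reached the range of the young ones. Most of the matrix sum came from Comp and Chad in the older mice, 94.4% to 96.3% in treated middle-aged and 88.6% to 94.2% in middle-aged libraries, against 48.4% to 76.7% in young libraries.

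**Figure D3:**
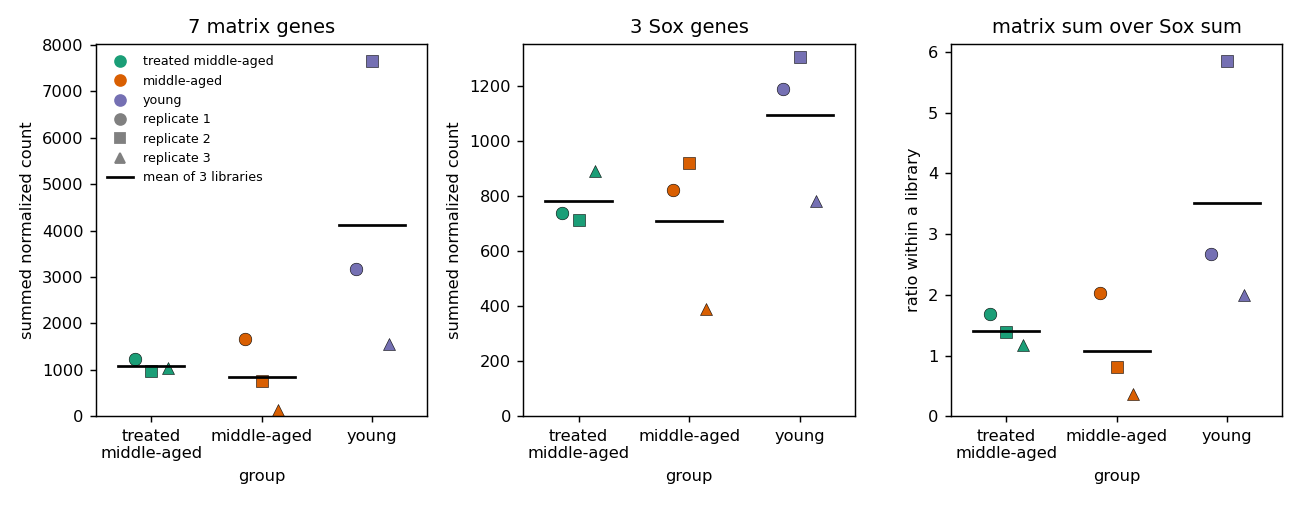
Summed normalized counts of the 7 matrix genes and of the 3 Sox genes, and the ratio of the 2 sums within each library, one point per library with the mean of 3 as a bar. The matrix sum reached 7649 in young replicate 2 and 143 in middle-aged replicate 3, while the Sox sums stayed between 391 and 1305.

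Levels of different genes were compared per kilobase of the longest transcript. Comp and Chad were the highest matrix genes in the older mice, with mean normalized counts per kilobase of 307 and 176 in treated middle-aged, 227 and 144 in middle-aged and 508 and 717 in young libraries. Their difference did not pass the threshold (mean log2 ratio 1.05, SD 2.17, Comp higher in 7 of 9 libraries, adjusted p = 0.116, exact sign-flip permutation test, two-sided, adjusted over 24 pairs of members), though it did without young replicate 1 (1.27, adjusted p = 0.0446 by the same exact test). Hapln1 came next, with 7.20, 9.44 and 194 per kilobase, below Comp in all 9 libraries (adjusted p = 0.00670 by the same exact test) and above Acan in all 9 (mean log2 ratio of Acan to Hapln1 -2.43, SD 0.88, adjusted p = 0.00670). Acan had 1.499, 1.30 and 41.2 per kilobase, Ucma 0.708, 0 and 60.4, and Matn3 0.0852, 0.246 and 76.4. In the young libraries all 3 were thus of one order, and pairs of these genes were not ranked further because most of their values in the older mice stood on 2 reads or fewer or, for Acan, on 0 to 23.

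Among the regulators Sox9 was the highest per kilobase, with 111, 97.1 and 163 in treated middle-aged, middle-aged and young libraries. It exceeded Sox5 in all 9 libraries (mean log2 ratio of Sox5 to Sox9 -2.85, SD 1.11, adjusted p = 0.00670, exact permutation test) and Sox6 in 8 of 9 (Sox6 to Sox9 -2.04, SD 1.39, adjusted p = 0.0117), with middle-aged replicate 3 the exception. Sox6, at 20.7, 27.9 and 32.2, was above Sox5, at 19.6, 9.18 and 19.0, in 8 of 9 libraries (Sox5 to Sox6 -0.81, SD 0.92, adjusted p = 0.0234).

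Other genes of cartilage were read from lists of fixed membership. Of the 7 cartilage collagen genes, all tested, 1 was called lower in middle-aged against young libraries and none higher. This was Col11a1, a chain of the collagen XI that nucleates cartilage fibrils, with 329, 248 and 22.0 normalized counts in middle-aged and 1534, 2765 and 811 in young libraries (log2 difference -3.61, SE 0.86, adjusted p = 0.0498, limma). Col2a1, Col9a1, Col9a2 and Col10a1 were picked after their values were seen. Col10a1 had the smallest difference of the 7, and its groups overlapped, with 19.7, 0 and 30.3 in middle-aged and 227, 71.8 and 2.25 in young libraries. It was not called (log2 difference -2.13, SE 1.74, adjusted p = 0.477, limma). Col2a1, the main collagen of cartilage, had 349, 177 and 0 in middle-aged and 1895, 8500 and 735 in young libraries and was not called (log2 difference -5.85, SE 1.77, adjusted p = 0.0946, limma). Col9a1, a chain of the collagen IX on the fibril surface, had no read in the 6 libraries of older mice and 1211 reads in young ones, at least 265.9-fold lower in middle-aged and at least 417.8-fold lower in treated middle-aged libraries by the 3-read limit over the group. Without young replicate 2 these limits were 63.9-fold and 100.3-fold, without middle-aged replicate 1 or 2 the first was 138.2-fold or 167.6-fold, and without treated middle-aged replicate 1 or 2 the second was 248.2-fold or 276.2-fold. Its values of 136, 629 and 6.74 in young libraries spread widely, and it was not called (adjusted p = 0.0504 in middle-aged against young libraries, limma). The median over the 7 collagens was -4.89, or -4.93 with Col9a1 and Col9a2, both without a read in the middle-aged group, at their bound. Both passed the filter through the young libraries alone, so low values in the older mice were built into their entry and into this median.

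Of 15 other cartilage matrix and secreted genes 10 were tested, and Matn2, a matrilin of many connective tissues, was called lower in middle-aged libraries, with 712, 452 and 217 against 1649, 975.2 and 1516 in young libraries (log2 difference -1.71, SE 0.39, adjusted p = 0.0457, limma). None of the other 9 tested genes of the list was called, and the median of the list was -1.90, which includes a gene that passed the filter through the young libraries alone.

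Of 13 genes that build and sulfate the chondroitin sulfate chains of aggrecan none was called in any comparison (limma), with a median log2 difference of -0.54 in middle-aged against young libraries. Chsy1, a chondroitin synthase, averaged 1186 ± 30.7 normalized counts in treated middle-aged, 896 ± 511 in middle-aged and 1429 ± 234 in young libraries (SD, n = 3 each). Papss2, which makes the sulfate donor, averaged 1109 ± 165, 705 ± 184 and 980 ± 202 in the same order of groups. The 7 genes for aggrecan cleavage and its inhibition likewise held no called gene. Their median was -1.79, beside -1.40 for the stromal niche markers in the same comparison. Adamts1, a protease that can cut aggrecan, had 7559, 5593 and 919 in middle-aged and 15030, 10345 and 10254 in young libraries, and Mmp13, a collagenase of hypertrophic cartilage and bone, 1957, 2464 and 391 against 6225, 6169 and 3720 (log2 differences -1.79, SE 0.63, adjusted p = 0.133 for Adamts1 and -2.08, SE 0.57, adjusted p = 0.0760 for Mmp13, limma).

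Of 12 signals and transcription factors of cartilage 5 were tested and none was called. Trps1 averaged 1135 ± 64.9 in treated middle-aged, 796 ± 395 in middle-aged and 1431 ± 389 in young libraries, and Pth1r, the receptor for parathyroid hormone and its related peptide, 362 ± 64.4, 229 ± 157 and 455 ± 10.2. Of the 16 other Sox genes on the list, 5 passed the filter, none of them was called, and 5 had no read in any library. The most abundant were Sox12, with 125 ± 49.1, 74.9 ± 49.0 and 130 ± 80.3, and Sox4, with 69.5 ± 12.2, 97.5 ± 79.4 and 128 ± 16.7.

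Because Comp is also made by tendon, markers of tendon and of other cells of bone were set beside the matrix genes. Of 6 tendon markers 5 were tested and Fmod, a small proteoglycan of tendon and cartilage, was called lower in middle-aged libraries, with 633, 196 and 173 against 942, 1617 and 1074 in young libraries (log2 difference -2.08, SE 0.44, adjusted p = 0.0366, limma). The tendon factor Scx, named after its values were seen because it defines tendon cells, was near 0, with 26 reads over the 9 libraries. The rest of the list was detected and not called. In treated middle-aged, middle-aged and young libraries, Thbs4 averaged 262, 196 and 530 normalized counts and Mkx 83.5, 90.2 and 124. Tnmd averaged 8.30, 14.2 and 36.6 and Kera 16.1, 11.1 and 34.2. The summed tendon markers were 717 to 897 in treated middle-aged, 253 to 1177 in untreated middle-aged and between 1455 and 2706 in young libraries. Of 8 osteoblast markers Ibsp, which encodes bone sialoprotein, was called lower (log2 difference -2.19, SE 0.45, adjusted p = 0.0332, limma), with 7849, 7611 and 2047 in middle-aged and 21397, 25751 and 21274 in young libraries. Their sum was 39818 to 43834 in treated middle-aged, 8767 to 34526 in untreated middle-aged and between 63732 and 81384 in young libraries. The log2 differences of the 8 in middle-aged against young libraries ran from -4.29 to -0.08. The smallest was that of Phex, with means of 5470 in treated middle-aged, 2992 in middle-aged and 2701 in young libraries. Phex had every treated library above every young one, whereas 5 of the 8 had every treated library below, as did 9.9% of all genes. Endothelial markers, led by Pecam1 and Cdh5, showed no called gene among 7. B lineage markers had 1 of 9 called, Mzb1, which was higher in the middle-aged than the young libraries (log2 difference 4.74, adjusted p = 0.0236, limma). The part of these cells in the matrix values was not tested.

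Over the 9 libraries, the gene most like Acan by Pearson's r of log2(normalized count + 1), among 14997 others, was Col11a1 (r = 0.98), followed by Slc35e4, Vldlr, Col2a1 and Fbf1 (r = 0.96 to 0.97). Hapln1 held place 10, then Ucma, Matn3 and Comp fell between places 107 and 177, and Chad held place 397, whereas Sox9 held place 1393, Sox5 3752 and Sox6 5840. The genes most like Sox9 were Amotl2, Chl1, Ak1, Zfp653 and Hdgfl3 (r = 0.984 to 0.996), and of the members Chad came first at place 317 (r = 0.94), then Comp at 1646 and Acan at 2926, with Sox6 at place 9073 (r = -0.18). The points share 3 groups and size factors, and middle-aged replicate 3 is the lowest point of Acan, Chad, Comp and Sox9 alike, so these values are descriptions of the 9 libraries.

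**Figure D4:**
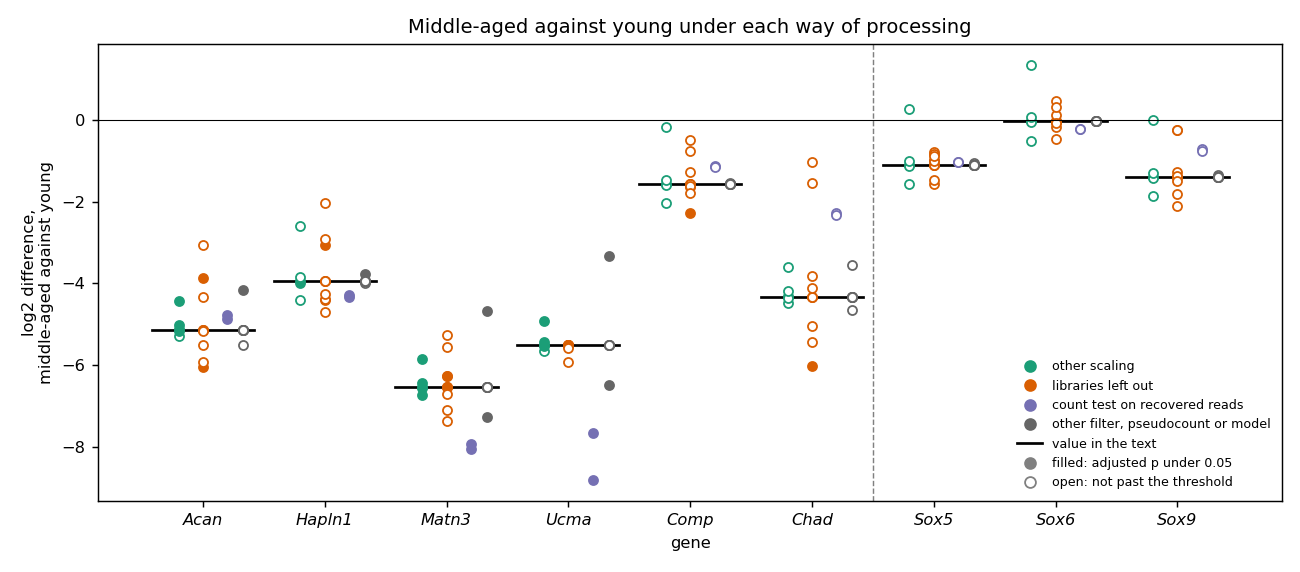
Log2 differences of middle-aged against young libraries for the 9 tested genes under each way of processing (colored points, filled where adjusted p was under 0.05) beside the value in the text (black bar). The matrix genes stay below 0 throughout and their calls come and go, while Sox5 and Sox6 cross 0, for Sox5 only under scaling to the niche markers, where it was 0.26.

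Across 25 ways of processing (22 for Ucma, which fell under the filter in 3), Acan was called lower in the middle-aged than the young libraries in 11, Hapln1 in 8, Matn3 in 18 and Ucma in 14, and the direction of all 4 was kept in each. The genes called lower over the whole table ran from 2, with the 2 groups alone, to 1251, without middle-aged replicate 1. Hapln1 was at an adjusted p of 0.0496 as reported and at 0.0541 under TMM scaling. When the libraries were scaled to the stromal niche markers, the median of all genes moved to 1.31, and the log2 differences of middle-aged against young libraries were -4.42 for Acan, -2.60 for Hapln1, -5.86 for Matn3 and -4.91 for Ucma, of which all but Hapln1 were called, while Comp stood at -0.18. With this scaling, 29 of all 15366 genes tested were called lower. With young replicate 2 and middle-aged replicate 3 both left out, the differences were -3.05 for Acan, -2.03 for Hapln1 and -5.27 for Matn3, none of them called, where 174 of all 14979 genes tested were called lower.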

How the data were processed

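LepR+ cells of 9 samples in 3 groups of 3 were sequenced on an Illumina HiSeq2500. The authors used bcl2fastq, STAR (mm10/GRCm38), featureCounts and DESeq2, and deposited gene counts divided by a size factor per library, a normalized signal. Versions, annotation and strandedness are not given in the sources used here. Dividing each column of deposited values by its step gave whole reads for 99.996% to 100% of values (within 0.1 read), with size factors of 0.364 to 1.67. No per-sample column was left unused.

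Genes averaging 10 or more normalized counts were tested with limma 3.58.1 (R 4.3.3, trended variance, all 9 libraries) on log2(value + 1), with Benjamini-Hochberg adjustment. Count tests on the recovered reads with edgeR 4.0.16 and DESeq2 1.42.0, and other pseudocounts, filters, scalings and left-out libraries, were alternatives. Counting intervals and the 3-read limit for a count of 0 cover counting error only. Members were compared per kilobase by an exact two-sided sign-flip test over 9 libraries (smallest p 0.003906). Folds of summed reads, and list medians with libraries left out, with niche scaling or by edgeR, were added after the data were seen. Symbols were matched to GENCODE M21, where 48007 (91.5%) matched 1 gene. Replicates of a group differed by far more than sampling noise (chi-square per degree of freedom 27.4 or more). Fits were tested on simulated counts with 1 spread per gene in all libraries, where only genes with a mean of at least 50 were changed. The simulation therefore does not cover genes with a lower mean or a library that stands apart. Sums, ratios and figures were made in Python 3.11.15 with scipy 1.17.1, numpy 2.4.6, pandas 2.3.3 and, for drawing, matplotlib 3.10.9.

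The text names all 10 genes, Lepr, from each companion list the genes called (up to 4 by adjusted p) or otherwise the 2 with the highest mean, and the 5 genes most correlated with Acan and with Sox9. Col2a1, Col9a1, Col9a2, Col10a1, Scx, Thbs4, Mkx, Tnmd, Kera and Phex were named after their values were seen, and Sox5os1 for its overlap with Sox5. The members and lists were chosen with earlier results of these data known.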

Additional observations from a re-analysis of the deposited data

How the results depend on the processing

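The number of members called lower in middle-aged against young libraries was 4 and fell to 2 with a pseudocount of 0.5, without a filter or without a variance trend, to 1 with a mean of at least 50 or with scaling to total reads, and to 0 with the 2 groups fitted alone or with young replicate 2 and middle-aged replicate 3 left out. Over all genes, 131 were called lower as reported, 105 with a pseudocount of 0.5, 38 without a filter and 26 without a variance trend. With a mean of at least 50 there were 146, with total scaling 8, with the 2 groups alone 2 and with both libraries left out 174. Leaving out 1 library gave 0 to 6, where 3 to 1251 of all genes were called lower. In treated middle-aged against young libraries the count of members was 0, and it was 1 with a pseudocount of 5 or with young replicate 2 and middle-aged replicate 3 left out, 2 without a variance trend, 4 with the 2 groups alone and 4 by DESeq2, and 0 to 3 with 1 library left out. Over all genes, 0 were called lower as reported, 3 with a pseudocount of 5 and 28 with both libraries left out. Without a variance trend 7 were, with the 2 groups alone 148, by DESeq2 39, and with 1 library left out 0 to 116. The test for any difference called 1 member, 0 with a pseudocount of 0.5, a mean of at least 50, no filter, or scaling to total reads or to niche markers, 2 without a variance trend, and 0 to 5 with 1 library left out. Over all genes it called 97 as reported, 77 with a pseudocount of 0.5 and 51 without a filter. It called 83 with a mean of at least 50, 19 with total scaling and 115 with niche scaling. Without a variance trend it called 39, and with 1 library left out 4 to 755. The count in treated against untreated middle-aged libraries was 0 under every alternative. The cause of these changes was not tested.

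Of the 24 pairs of members compared per kilobase 20 passed, and 18 to 21 under the alternatives. Without division by length, Comp against Chad passed (adjusted p = 0.0197) and Sox6 against Sox9 did not (adjusted p = 0.0852, exact permutation tests).

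Deviations from the group means correlated at -0.01 to 0.12 between same-numbered libraries and at -0.10 to 0.05 between differently numbered ones. Whether the replicate number marks a pairing or a batch was not tested. With the replicate number as a block, 3 members were called in middle-aged against young libraries, 2 in the test for any difference, and 0 in the other comparisons. There, 41 of all 14998 genes were called lower in middle-aged against young libraries, and 78 were called in the test for any difference.

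Directions that turned all belonged to differences that were not called. In treated against untreated middle-aged libraries, leaving out 1 library gave -0.29 to 1.90 for Acan, -0.95 to 0.40 for Hapln1, -0.57 to 0.27 for Matn3, -0.24 to 4.25 for Chad and -0.33 to 1.52 for Sox9, with the lowest values of all but Matn3 reached without middle-aged replicate 3. With young replicate 2 and middle-aged replicate 3 both left out the same comparison gave -0.29 for Acan, -0.24 for Chad and -0.33 for Sox9, total scaling gave 0.42 for Hapln1 and 0.085 for Sox6, and niche scaling gave -0.071 for Sox9. In middle-aged against young libraries, niche scaling gave 0.26 for Sox5 and 1.36 for Sox6, totals that leave out antibody genes and mitochondrial rRNA gave 0.078 for Sox6, leaving out 1 library -0.47 to 0.47 for Sox6, and leaving out both libraries 0.33 for Sox6. In treated middle-aged against young libraries, leaving out 1 library gave -0.23 to 0.41 for Sox5 and -0.89 to 0.042 for Sox6, and Sox6 was at 0.042 with niche scaling and with both libraries left out. Niche scaling moved the median of all genes to 1.31 in middle-aged against young libraries and total scaling to -0.56. Over all genes, the calls in middle-aged against young libraries numbered 452 as reported, 343 by edgeR, 1624 by DESeq2, 2302 with niche scaling, of which 29 were lower, 68 with total scaling, 78 without a variance trend and 46 with the 2 groups alone.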
